A study of Homo sapiens with 24 samples.

Results

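The HOX cluster genes are the members of the HOXA, HOXB, HOXC and HOXD clusters, chosen as every gene of the array annotation whose symbol is one of these names followed by a number. Of 39 such genes in RefSeq, 29 had a probe in the annotation used here, 36 probes in all, among 20046 genes with a probe of a single symbol. These were 1 of 11 HOXA genes (HOXA2), all 10 HOXB genes, all 9 HOXC genes and all 9 HOXD genes, and the other HOXA genes were not analysed here. The mRNA was measured on HumanHT-12 V4 BeadChips of Illumina in T24, a bladder carcinoma cell line, HL-60, a promyelocytic leukemia cell line, and HCT116, a colon carcinoma cell line, with 4 conditions per cell line, 2 arrays per condition and 24 arrays in all. The treatments were clorgyline, which blocks monoamine oxidases and the related histone demethylase LSD1, 5-Aza-CdR, a cytidine analog that depletes DNA methyltransferases, and the combination of both, each set against untreated control cells. Clorgyline was given at 10 µM every day and 5-Aza-CdR for 24 hours, at 1 µM to T24, 0.1 µM to HL-60 and 0.3 µM to HCT116. RNA was taken at day 18 from T24 and HL-60 and at day 20 from HCT116. The labels number the 2 arrays of a condition as replicates without saying that they come from separate cultures, so the spread behind each p-value is that between these arrays and may be technical. Each is a single established line, the 5-Aza-CdR dose differed between them, and on bulk RNA fewer expressing cells and less RNA per cell cannot be told apart.

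HOX genes encode homeodomain transcription factors that lie side by side in clusters, and their order along the chromosome matches the order in which they are used from head to tail of the embryo. Genes with low numbers act in the hindbrain and neck, middle ones in the trunk, and those with high numbers in the lower trunk and the ends of the limbs. Outside their territory they are kept silent by Polycomb proteins and, in many cancers, by DNA methylation of their CpG-rich starts, while the MLL and Trithorax proteins keep them on. In blood, HOX genes are used in stem and progenitor cells and fall silent as the cells mature.

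On GRCh38.p14 the HOXA cluster lies at chr7:27092993-27200091, HOXB at chr17:48528526-48728750, HOXC at chr12:53938831-54056030 and HOXD at chr2:176087487-176190907. A RefSeq window of 250 bases before and 50 after a start was at hand for 12 of the 29 genes, in 11 distinct windows. For HOXD13 and HOXD3 the window lay inside the gene, since their RefSeq records begin further upstream, at 176087487 and 176152529. Because 5-Aza-CdR depletes the enzymes that methylate CpG, the windows were searched for the dinucleotide CG, which reads the same on both strands. The 11 windows held 4 to 36 CG with a median of 23, against a median of 14 over all 34943 windows, 96.0% of which held at least 1. HOXD13 and HOXD1 are shown because each was above background under a single cell line label. The window shared by HOXC4 and HOXC5 is shown because HOXC4 differed between arrays while HOXC5 stayed at background everywhere. HOXC6, which was above background under every label and condition, has the same RefSeq start, so this start is not particular to HOXC4 and HOXC5. CG is in capitals. The HOXD13 window, chr2:176092471-176092770 on the plus strand, held 24 CG, a number that 33.8% of all windows reach. The HOXD1 window, chr2:176188418-176188717 on the plus strand, held 36, reached by 12.7%. The HOXC4 and HOXC5 window, chr12:54016638-54016937 on the plus strand, held 15, reached by 48.8%.
HOXD13: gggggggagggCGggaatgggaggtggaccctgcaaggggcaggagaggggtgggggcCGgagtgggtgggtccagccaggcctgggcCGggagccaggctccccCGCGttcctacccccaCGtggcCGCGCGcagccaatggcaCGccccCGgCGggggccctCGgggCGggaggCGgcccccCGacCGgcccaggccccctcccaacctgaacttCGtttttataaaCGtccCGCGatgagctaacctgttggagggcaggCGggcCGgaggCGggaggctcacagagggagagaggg
HOXD1: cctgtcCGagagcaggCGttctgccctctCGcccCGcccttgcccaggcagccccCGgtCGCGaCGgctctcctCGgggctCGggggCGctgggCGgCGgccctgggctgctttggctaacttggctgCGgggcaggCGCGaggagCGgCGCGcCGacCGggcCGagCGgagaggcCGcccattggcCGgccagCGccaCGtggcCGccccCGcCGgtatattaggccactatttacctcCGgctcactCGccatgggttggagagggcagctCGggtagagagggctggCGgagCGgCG
HOXC4 and HOXC5: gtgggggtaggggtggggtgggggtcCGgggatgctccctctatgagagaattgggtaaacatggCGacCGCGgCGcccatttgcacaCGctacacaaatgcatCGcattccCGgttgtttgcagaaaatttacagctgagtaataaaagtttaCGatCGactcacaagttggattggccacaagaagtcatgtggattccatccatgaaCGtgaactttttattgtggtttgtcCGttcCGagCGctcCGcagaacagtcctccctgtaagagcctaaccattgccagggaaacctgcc
No methylation was measured on these arrays, and a CG in a window is a description of the sequence only.

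The labels were compared with the arrays first, since levels of HOX genes differ strongly between tissues. Across all probes, the 6 treated arrays labelled HCT116 correlated with the arrays labelled T24 with a median of 0.985 over 48 array pairs, and with the HCT116 control arrays with a median of 0.907 over 12 pairs. Across the 29 HOX genes the same medians were 0.984 and 0.575, while the HCT116 control arrays reached 0.575 with the arrays labelled T24. Probes and genes are not independent replicates, and these correlations are descriptions. EPCAM, an epithelial marker on the intestinal list, lay between 11.91 and 12.57 on the log2 scale on treated arrays labelled HCT116. HCT116 control arrays gave 7.84 and 7.88 for EPCAM, 7.57 and 7.65 for CDH1 and 7.60 and 7.63 for CDX2, beside a background limit of 7.80. On these control arrays 2 of 10 intestinal markers (TFF3, EPCAM) and 3 of 9 urothelial markers (GATA3, KRT7, PPARG) were above the limit. Of 5 mesenchymal markers 3 (VIM, CDH2, SPARC) were above the limit. On T24 control arrays EPCAM gave 12.67 and 12.62 and CDH1 8.54 and 8.53, and 3 of 10 intestinal markers (CDX2, EPCAM, CDH1), 1 of 9 urothelial markers (PPARG) and 1 of 5 mesenchymal markers (VIM) were above it. EPCAM, CDH1, CDX2 and the urothelial marker KRT7 thus went against the labels of both the HCT116 and the T24 control arrays. The intestinal marker TFF3 went with the labels, 0.05 over the limit on HCT116 control arrays and 0.13 below it on T24 control arrays. The intestinal markers CDX1, CDH17, VIL1, KRT20, LGALS4 and CEACAM5 were below the limit on both sets of control arrays and did not separate them. The treatment labels within HCT116 were also at odds with the arrays labelled T24. VIM, which gave 11.94 and 11.49 with the combination and 11.35 and 11.65 with 5-Aza-CdR on arrays labelled T24, against 10.05 and 10.11 in control, gave 9.66 and 9.64 on HCT116 combination arrays, 11.65 and 11.90 on HCT116 clorgyline arrays and 9.55 and 9.63 on HCT116 5-Aza-CdR arrays. This concerns all 3 treatment labels of HCT116, since VIM with clorgyline on arrays labelled T24 was 9.91 and 9.93. Myeloid markers were above background for 6 of 8 genes on HL-60 control arrays, MPO at 15.75 and 15.85 among them. All values below are therefore given by label, as arrays labelled T24, HL-60 or HCT116.

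A gene was called above background where the mean of its probe, the brightest one in that cell line where it has several, exceeded the 99th percentile of 371 olfactory receptor genes, which few tissues express, on the same arrays. On control arrays this held for 16 of 29 HOX genes (55.2%) labelled HCT116, 9 (31.0%) labelled HL-60 and 7 (24.1%) labelled T24, against 43.9%, 50.2% and 44.6% of all genes in the same order. HOXC6, HOXB5, HOXB6, HOXC9 and HOXC13 were above the limit in all 3. HOXB6 was read from a different probe for HL-60, and the probe used for T24 and HCT116 was 0.04 below the limit on HL-60 control arrays, while the one used for HL-60 was 0.07 below it on T24 control arrays. HOXB1, HOXB9, HOXC5, HOXC11, HOXC12, HOXD8, HOXD9, HOXD10 and HOXD12 were above it under no label and condition.

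**Figure D1:**
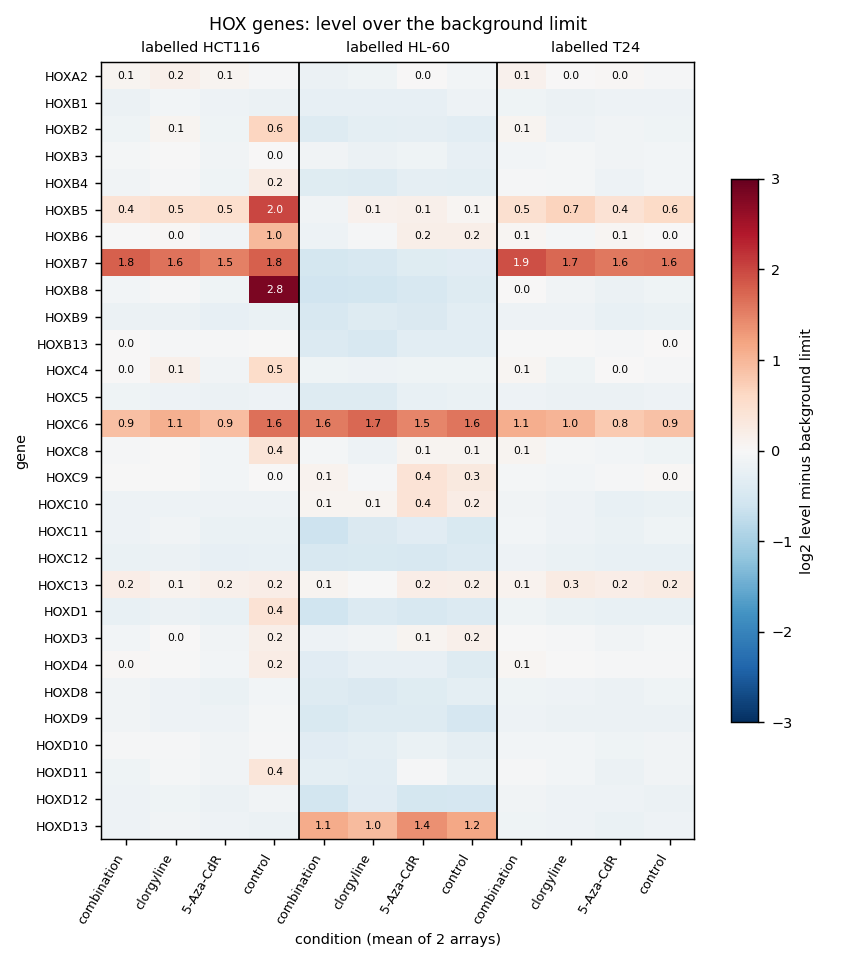
Colour gives the mean log2 level of 2 arrays minus the background limit, for 29 HOX genes (down the page) in 12 groups (across), with the value printed where it is above 0. HOXC6 was above the limit in all 12 groups, HOXD13 in the 4 labelled HL-60 and HOXB8 by 2.83 in the control labelled HCT116.

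Of the trunk genes, HOXB7 gave 10.192 and 10.002 with the combination, 10.05 and 9.77 with clorgyline and 9.85 and 9.74 with 5-Aza-CdR on arrays labelled T24, against 9.80 and 9.84 in control, 1.61 over the limit. Thus both combination arrays were above both control arrays and the other treatments overlapped them. On HL-60 arrays HOXB7 stayed below the limit in every condition, between 7.19 and 7.44. HOXC6, which marks the thoracic level, was the only member above the limit in all 12 groups. On HL-60 arrays it gave 9.37 and 9.35 with the combination, 9.55 and 9.40 with clorgyline and 9.16 and 9.18 with 5-Aza-CdR, against 9.42 and 9.20 in control, and the treated and control arrays overlapped except for 5-Aza-CdR, where both lay below. On arrays labelled T24 it gave 9.24 and 9.29 with the combination, 9.19 and 9.26 with clorgyline and 8.98 and 9.03 with 5-Aza-CdR, against 9.05 and 9.14 in control. There both combination and both clorgyline arrays were above the control arrays and both 5-Aza-CdR arrays below. HOXC6 has 4 probes, and the value is that of a single one: on control arrays the other 3 lay below the limit for T24 and HCT116, and for HL-60 1 of them exceeded it by 0.03.

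HOXD13, the last gene of its cluster, which shapes the digits and is a fusion partner of NUP98 in myeloid leukemia, was above background under the HL-60 label alone. It gave 8.86 and 8.95 with the combination, 8.74 and 8.66 with clorgyline and 9.05 and 9.08 with 5-Aza-CdR, against 8.76 and 8.97 in control. Both 5-Aza-CdR arrays were above both control arrays, both clorgyline arrays below, and the combination lay within the control range. Its neighbours HOXD12, HOXD11, HOXD10, HOXD9 and HOXD8 were below the limit on HL-60 control arrays. Of the posterior HOXC genes, HOXC9, which specifies motor neurons of the trunk level in the mouse, gave 8.03 and 7.99 on HL-60 control arrays, 0.30 over the limit. HOXC10, which does so at the hindlimb level, gave 7.95 and 7.92, 0.23 over the limit. HOXC13, which drives hair keratin genes, gave 7.91 and 7.86 there, 0.18 over the limit, and 8.47 and 8.45 on T24 control arrays, 0.25 over the limit. HOXB13, the most posterior HOXB gene, known from the prostate, gave 8.18 and 8.27 on T24 control arrays and HOXB6, a trunk gene, 8.23 and 8.19, each with 1 of 2 arrays above the limit. On HL-60 control arrays HOXB6 gave 7.94 and 7.80, both above the limit.

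Of the genes of the head and neck levels, HOXB5, which acts in the neural crest of the gut, gave 7.66 and 7.89 on HL-60 control arrays, where the limit was 7.71, and 8.68 and 8.87 on T24 control arrays, where it was 8.21. HOXD3 gave 7.83 and 7.89 on HL-60 control arrays, 0.15 over the limit, and HOXC8, a trunk gene, 7.81 and 7.77. HOXA2, which gives the second pharyngeal arch its identity, was below the limit on all 3 sets of control arrays. On arrays labelled HCT116 it was 0.07 to 0.16 over the limit in the 3 treatments, and on arrays labelled T24 0.01 to 0.13.

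**Figure D2:**
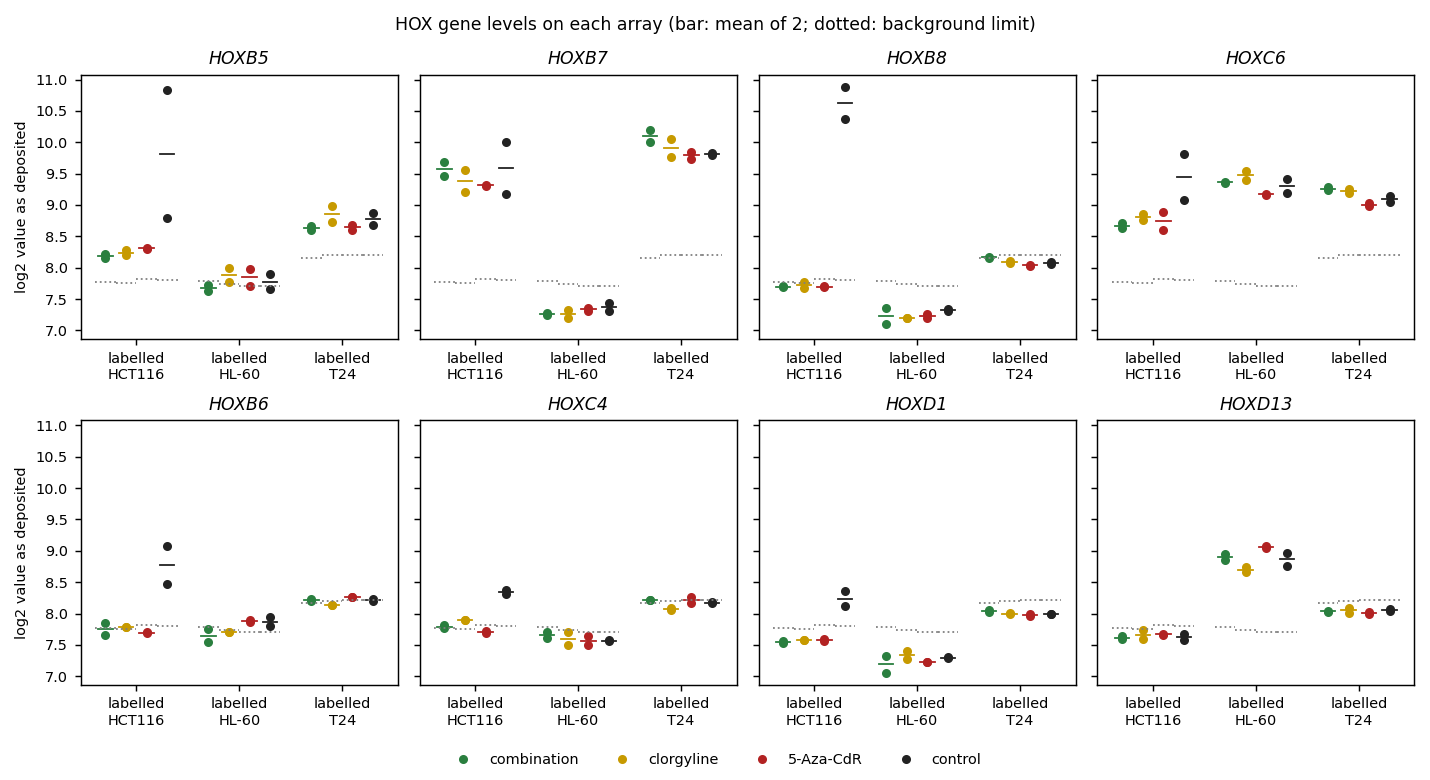
Each point is the deposited log2 value of a gene on 1 array, for 8 HOX genes, with bars for the mean of 2 arrays and dotted lines for the background limit. HOXB8 lay between 7.68 and 7.78 on the treated arrays labelled HCT116, against 10.89 and 10.37 on the control arrays of that label.

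To find which HOX genes the drugs changed, each cell line was fitted over all probes with limma, and a gene was called at a Benjamini-Hochberg adjusted p under 0.05 over all probes. On arrays labelled T24, 0 of 29 HOX genes were called with clorgyline, with 5-Aza-CdR, for the combination against 5-Aza-CdR or for the excess of the combination over the sum of both drugs. The shares of all genes called in these comparisons were 0.544%, 0.175%, 2.35% and 0.569%. At an unadjusted p under 0.05 the comparisons gave 4, 1, 8 and 2 HOX genes, against 2725, 2064, 3812 and 2623 of 20046 genes. The smallest adjusted p with clorgyline was that of HOXC9 (0.0814, log2 change -0.13, SE 0.02), followed by HOXB6 (0.355, -0.07, SE 0.02). With 5-Aza-CdR it was again HOXC9 (0.517, -0.07, SE 0.02), and HOXB6 was at 0.05 (SE 0.02, adjusted p = 0.709). The combination exceeded 5-Aza-CdR by 0.26 for HOXC6 (SE 0.04, adjusted p = 0.0584) and 0.13 for HOXB2 (SE 0.02, adjusted p = 0.0740). HOXB2 also had the smallest adjusted p of the excess over the sum (0.17, SE 0.03, adjusted p = 0.175), with HOXB8 next (0.10, SE 0.03, adjusted p = 0.421).

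The combination against control called 2 of 29 HOX genes on arrays labelled T24, against 5.07% of all genes. HOXB2, a hindbrain gene, gave 8.23 and 8.24 with the combination and 8.08 and 8.10 in control, a log2 change of 0.14 (SE 0.02, adjusted p = 0.0378). HOXC9 gave 8.09 and 8.10 with the combination and 8.23 and 8.25 in control, a log2 change of -0.14 (SE 0.02, adjusted p = 0.0254). The 2 groups did not overlap for either gene, and both lay close to the background limit of 8.16 with the combination and 8.21 in control. HOXB2 was below the limit in control and HOXC9 with the combination, each near the median of all probes, 8.09. The fold changes were 1.11 for HOXB2 and 0.906 for HOXC9, and since each compares a level with background, they do not measure the size of a change. The change of HOXB2 ranged from 0.14 to 0.15 and that of HOXC9 from -0.16 to -0.13 over 15 alternatives, with adjusted p from 0.00425 to 1 and from 0.00945 to 0.832, and each call was lost in 10 of them, among them leaving out any control, clorgyline or combination array. Over the 29 genes the log2 changes ran from -0.19 (HOXC13, adjusted p = 0.0767) to 0.28 (HOXB7), with a median of 0.01, against a median of 0.00 over all genes.

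**Figure D3:**
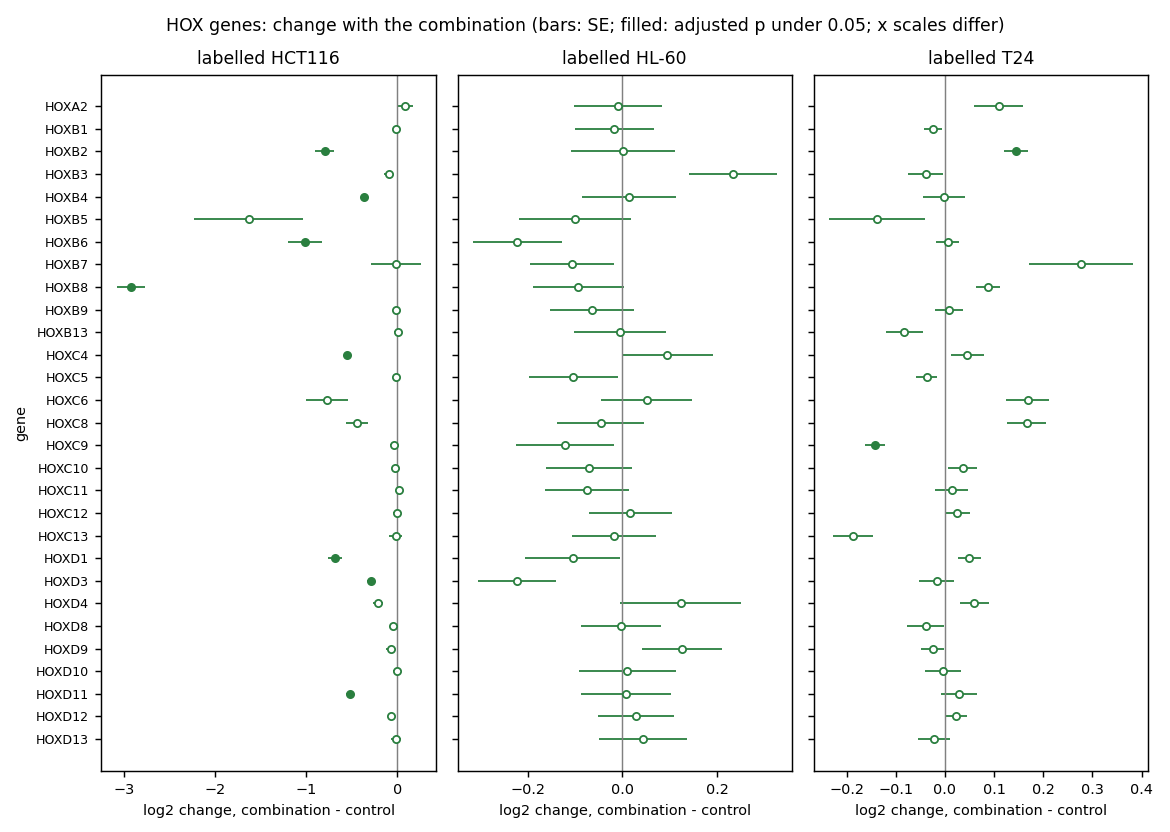
Log2 change of 29 HOX genes with the combination against control for each label, from limma, with bars for the SE and filled points for an adjusted p under 0.05. On arrays labelled T24 the changes ran from -0.19 to 0.28, on HL-60 arrays from -0.22 to 0.23, and on arrays labelled HCT116 from -2.93 to 0.08, and the x scales differ.

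On HL-60 arrays no HOX gene was called by limma in any of 5 comparisons, although 1.12% of all genes were called with clorgyline, 9.97% with 5-Aza-CdR, 16.3% with the combination, 3.78% for the combination against 5-Aza-CdR and 0.299% for the excess over the sum of both drugs. At an unadjusted p under 0.05 the counts were 4, 0, 3, 2 and 0 of 29. Over all genes they were 2599, 4713, 5643, 3677 and 1928 of 20045 in the same order. With clorgyline the genes with the smallest p were HOXC9 (log2 change -0.31, SE 0.10, adjusted p = 0.288) and HOXD3 (-0.22, SE 0.08, adjusted p = 0.351). HOXC9 gave 7.83 and 7.58 with clorgyline against 8.03 and 7.99 in control, and HOXD3 7.61 and 7.66 against 7.83 and 7.89, so the groups did not overlap for either gene. With 5-Aza-CdR HOXD13 was at 0.20 (SE 0.09, adjusted p = 0.302) and HOXC10 at 0.18 (SE 0.09, adjusted p = 0.352), both with treated arrays above the control arrays. With the combination HOXD3 was at -0.22 (SE 0.08, adjusted p = 0.127) and HOXB3, below the background limit in every HL-60 condition, at 0.23 (SE 0.09, adjusted p = 0.160).

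Between the drugs on HL-60 arrays, HOXC10 was at -0.25 (SE 0.09, adjusted p = 0.215) and HOXB6 at -0.23 (SE 0.09, adjusted p = 0.291) for the combination against 5-Aza-CdR. The excess over the sum was -0.24 for HOXC11 (SE 0.13, adjusted p = 0.749) and -0.28 for HOXB5 (SE 0.17, adjusted p = 0.794). HOXC6 and HOXD13, each more than 1 log2 unit over the limit on HL-60 control arrays, were at 0.05 and 0.04 with the combination. The medians of the 29 log2 changes were -0.06 with clorgyline, 0.01 with 5-Aza-CdR and -0.01 with the combination, against 0.00, 0.00 and -0.01 over all genes. A fit over all 24 arrays called 3, 2, 3 and 3 HOX genes in the first 4 of these comparisons. Of all probes, 47231 less the 2 with missing values, it called 2899, 7095, 9217 and 4138 in the same order.

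On arrays labelled HCT116 the contrasts with control are given as labelled, since the treated arrays resembled the arrays labelled T24 and the control arrays did not. Treatment and the difference between these sets of arrays cannot be told apart. Against control, 8 of 29 HOX genes were called with the combination, 9 with clorgyline and 9 with 5-Aza-CdR, all of them lower, against 7.46%, 6.87% and 7.72% of all genes called lower and 15.7%, 15.3% and 16.2% called in either direction. These 3 comparisons share the same 2 control arrays. HOXB8, whose forced expression keeps myeloid progenitors from maturing, gave 7.69 and 7.71 with the combination, 7.68 and 7.78 with clorgyline and 7.69 and 7.70 with 5-Aza-CdR, against 10.89 and 10.37 in control. All 6 treated arrays were near the background limit and both control arrays far above it. The log2 changes were -2.93 with the combination (SE 0.16, adjusted p = 0.000366), -2.90 with clorgyline (adjusted p = 0.000385) and -2.93 with 5-Aza-CdR (adjusted p = 0.000348). Where every treated array was below the background limit, a change has only a lower bound, taken with the treated level set at that limit. HOXB8 was at least 7.23-fold lower with the combination and at least 7.05-fold lower with 5-Aza-CdR than in control.

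HOXB6 gave 7.66 and 7.86 with the combination, 7.78 and 7.78 with clorgyline and 7.71 and 7.69 with 5-Aza-CdR, against 9.08 and 8.47 in control on arrays labelled HCT116. Its log2 changes were -1.02 (SE 0.19, adjusted p = 0.0251), -0.995 (adjusted p = 0.0271) and -1.08 (adjusted p = 0.0197) in the same order. These values are those of the brighter HOXB6 probe. The other HOXB6 probe gave a mean of 7.92 in control, 0.12 over the limit, and of 7.75 over all 8 arrays. The hindbrain gene HOXB2 gave 7.66 and 7.64 with the combination, 7.85 and 7.82 with clorgyline and 7.69 and 7.69 with 5-Aza-CdR, against 8.27 and 8.62 in control, with changes of -0.80, -0.61 and -0.76 and adjusted p of 0.00708, 0.0185 and 0.00807. No treated array overlapped the control arrays for either gene. HOXB2 was at least 1.59-fold lower with the combination and 1.55-fold with 5-Aza-CdR, and HOXB6 at least 1.95-fold lower with 5-Aza-CdR. The call of HOXB6 was lost in 7 of 15 alternatives with the combination and 7 with clorgyline, among them leaving out any treated array, and in 3 with 5-Aza-CdR, among them leaving out either 5-Aza-CdR array. That of HOXB2 was lost in 1, 3 and 3, with clorgyline and 5-Aza-CdR among them leaving out either array of that drug. HOXB4, which expands blood stem cells when forced on, lay between 7.65 and 7.72 on treated arrays, against 8.06 and 8.03 in control, with changes of -0.37, -0.33 and -0.36 with the combination, clorgyline and 5-Aza-CdR (adjusted p = 0.00183, 0.00286 and 0.00201), and was at least 1.20-, 1.22- and 1.17-fold lower in the same order.

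Of the HOXC cluster, HOXC4, a gene of the neck level, was called. It gave 7.81 and 7.77 with the combination, 7.90 and 7.90 with clorgyline and 7.68 and 7.72 with 5-Aza-CdR, against 8.31 and 8.38 in control on arrays labelled HCT116. Its changes were -0.56, -0.45 and -0.64 (SE 0.03, adjusted p = 0.000600, 0.00127 and 0.000366), and HOXC4 was at least 1.45-fold lower with 5-Aza-CdR. These values are those of the brighter HOXC4 probe. The other HOXC4 probe gave a mean of 7.66 in control, 0.15 below the limit, and of 7.67 over all 8 arrays. HOXC5, which shares the RefSeq start of HOXC4 and the printed window, stayed between 7.59 and 7.66 on all 8 arrays, below the limit. HOXC8, a trunk gene, lay between 7.67 and 7.80 on treated arrays, against 8.37 and 7.99 in control, and was not called (-0.45 with the combination, SE 0.12, adjusted p = 0.0852, where the bound was 1.32-fold). HOXC9, at 7.87 and 7.74 in control, and HOXB3, at 7.76 and 7.84, had means at the limit of 7.80. The other HOXB3 probe gave a mean of 7.89 in control, 0.09 over the limit, and of 7.72 over all 8 arrays. HOXC13, at 7.92 and 8.08 in control, was 0.20 over the limit.

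Of the HOXD cluster, HOXD1, which acts in pain-sensing neurons of the mouse, gave 7.57 and 7.54 with the combination, 7.58 and 7.58 with clorgyline and 7.59 and 7.57 with 5-Aza-CdR, against 8.35 and 8.12 in control. Its changes were -0.69, -0.65 and -0.66 (SE 0.07, adjusted p = 0.00347, 0.00407 and 0.00384), and the arrays did not overlap. All 6 treated arrays were below the limit, and HOXD1 was at least 1.38-fold lower with the combination and 1.34-fold with 5-Aza-CdR, with a bound of 0.48 on the log2 scale with clorgyline. HOXD11, which shapes the forearm in the mouse, lay between 7.62 and 7.75 on treated arrays, against 8.19 and 8.14 in control, and changed by -0.52, -0.47 and -0.47 (adjusted p = 0.00220, 0.00316 and 0.00294), at least 1.31-, 1.33- and 1.28-fold lower. HOXD3 lay between 7.66 and 7.80 on treated arrays, against 8.02 and 7.93 in control, and changed by -0.29, -0.21 and -0.27 (adjusted p = 0.0106, 0.0308 and 0.0122), at least 1.15-fold lower with the combination and 1.12-fold with 5-Aza-CdR. Its call was lost in 2, 8 and 3 of 15 alternatives, with the combination when its second array was left out, with clorgyline when the first control array or any treated array was left out, and with 5-Aza-CdR when either array of that drug was left out. HOXD4 lay between 7.72 and 7.84 on treated arrays, against 8.11 and 7.96 in control. It was called with clorgyline (-0.30, adjusted p = 0.0222, at least 1.21-fold lower) and with 5-Aza-CdR (-0.30, adjusted p = 0.0200, at least 1.16-fold lower), and was at -0.21 with the combination (adjusted p = 0.0656). These calls were lost in 6 of 15 alternatives with clorgyline, among them leaving out any clorgyline or 5-Aza-CdR array, and in 4 with 5-Aza-CdR, among them leaving out either array of that drug. HOXD13 stayed between 7.58 and 7.73 on all 8 arrays, below the limit.

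The 2 control arrays labelled HCT116 differed from each other by more than the treated pairs, with a correlation of 0.966 across all probes, while the treated pairs of this label reached 0.988 to 0.993. HOXB5 gave 8.22 and 8.15 with the combination, 8.20 and 8.28 with clorgyline and 8.30 and 8.32 with 5-Aza-CdR, against 10.84 and 8.79 in control. Every treated array was below both control arrays, but the control arrays lay far apart, and the changes of -1.63, -1.58 and -1.501 were not called. HOXC6 gave 8.60 to 8.89 and HOXB7 9.21 to 9.68 on treated arrays, against 9.81 and 9.09 for HOXC6 and 9.999 and 9.17 for HOXB7 on these 2 control arrays. Treated arrays lay within the control range for HOXB7 and below it for HOXC6. Among the treated arrays labelled HCT116, which need no control array, 0 of 29 HOX genes were called for the combination against 5-Aza-CdR, with 0% of all genes called and 1 HOX gene at an unadjusted p under 0.05. For clorgyline against 5-Aza-CdR the counts were also 0 called, with 0.649% of all genes, and 1 at an unadjusted p under 0.05. At that unadjusted p these comparisons gave 1288 and 2095 of 20046 genes in the same order. The gene with the smallest p in both was HOXC4, at 0.09 (SE 0.03, adjusted p = 0.956) and 0.20 (SE 0.03, adjusted p = 0.140), followed by HOXD8 at 0.04 (SE 0.02, adjusted p = 0.979) and HOXC5 at -0.04 (SE 0.02, adjusted p = 0.814).

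For a comparison between labels at the same treatment, the 24 arrays were quantile normalized together, since the deposited values had been normalized separately per label. HCT116 control arrays differed from T24 control arrays for 14 of 29 HOX genes, all higher, against 28.4% of all genes differing and 13% higher. After a common median in place of the joint normalization 11 were called. HOXB5, HOXB6 and HOXC6 were above the joint background limit on both HCT116 control arrays and on at least 1 T24 control array, with differences, as HCT116 minus T24, of 1.66, 1.43 and 0.89 (1.44, 0.97 and 0.75 after a common median). HOXD3, with 1 T24 array above the limit, differed by 0.43 (0.22 after a common median). The other genes called were below the limit on both T24 control arrays, so their differences have only a lower bound. HOXB8 was at least 11.1-fold higher on HCT116 control arrays (difference 3.73, SE 0.11, adjusted p = 3.14e-12, and 2.96 after a common median). HOXB2 was at least 2.03-fold higher, HOXC4 1.86-fold, HOXD1 1.67-fold, HOXC8 and HOXD11 1.56-fold, HOXB4 1.37-fold and HOXD4 1.35-fold. All HOXB6 and HOXC4 values between labels are those of the brighter probe of each gene, and those of HOXC6 of its brightest. After a common median the differences of HOXB2, HOXC4 and HOXD1 were 0.76, 0.57 and 0.64, against 1.26, 0.97 and 1.15 in the joint normalization, and HOXD4 was no longer called (adjusted p = 0.112). HOXD9 and HOXD12 were below the limit on all 4 arrays, so no difference is given, and after a common median neither was called (adjusted p = 0.343 and 0.268). At matched treatment labels the same comparison called HOXC4 alone with clorgyline (0.47, SE 0.06, adjusted p = 0.000224, with 3.18% of all genes called). In the joint normalization HOXC4 was at 8.20 on HCT116 clorgyline arrays. On arrays labelled T24 it was at 7.74 with clorgyline, 8.02 with 5-Aza-CdR and 8.03 with the combination. VIM was at odds with the treatment labels of HCT116, so this pairing by label is uncertain. HOXC4 was at least 1.17-fold higher on HCT116 clorgyline arrays, was below the limit on both T24 clorgyline arrays, and was not called after a common median (0.23, adjusted p = 0.159). The comparison called 0 of 29 with 5-Aza-CdR (2.49% of all genes) and 0 of 29 with the combination (5.57%), with 2 and 2 HOX genes at an unadjusted p under 0.05. The change against control itself differed between HCT116 and T24 labels for 7 of 29 HOX genes with clorgyline, 8 with 5-Aza-CdR and 10 with the combination, against 10.4%, 13.8% and 14.7% of all genes. Between HL-60 and T24 limma called 0 of 29 in each treatment, against 2.17%, 5.73% and 12.2% of all genes, with 4, 4 and 3 HOX genes at an unadjusted p under 0.05. For these unadjusted counts between labels the share of all genes was not computed.

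**Figure D4:**
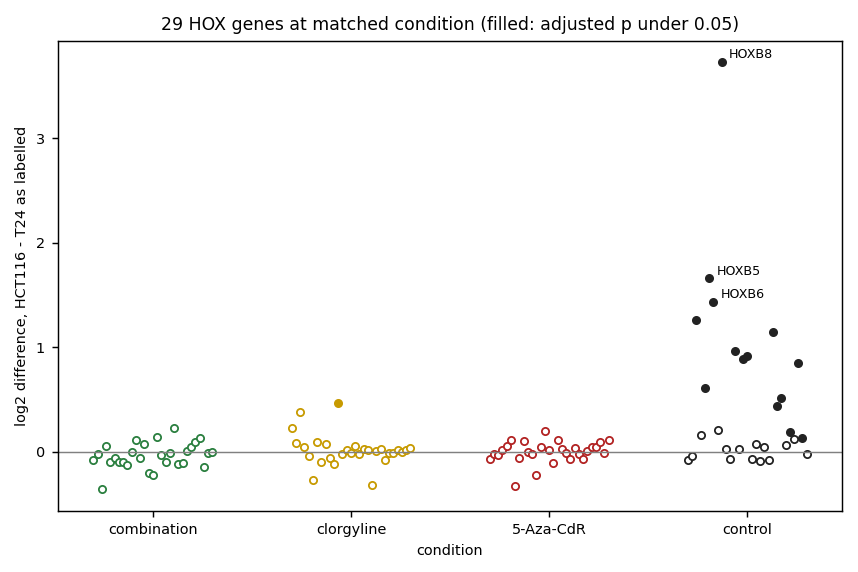
Each point is the log2 difference of 1 of 29 HOX genes between arrays labelled HCT116 and T24 in the same condition, after joint quantile normalization, with filled points for an adjusted p under 0.05. In control 14 points are filled, up to 3.73 for HOXB8, and 10 of these genes were below the background limit on both T24 control arrays, and in the 3 treatments the differences ran from -0.36 to 0.47 with 1 point filled.

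HL-60 control arrays differed from T24 control arrays for 7 of 29 HOX genes, against 34.4% of all genes. HOXD13 (0.75, SE 0.07, adjusted p = 5.67e-07, at least 1.36-fold) and HOXC10 (0.34, SE 0.04, adjusted p = 1.87e-05) were called higher on HL-60 arrays, against 18.3% of all genes higher. HOXC10 was below the limit on both T24 arrays and has no bound above 1. HOXB7 (-2.47, SE 0.20, adjusted p = 1.45e-07, at least 4.9-fold), HOXB13 (at least 1.13-fold), HOXC6 (-0.61), HOXC13 (-0.51) and HOXD4 were called lower, against 16.2% of all genes lower, and HOXD4 was below the limit on all 4 arrays. The calls of HOXC6, HOXC10 and HOXC13 rest on the scaling: HOXC6 was at 0.21 in the deposited values and 0.77 after a common median, HOXC10 at -0.08 in the deposited values, and HOXC13 at -0.01 after a common median (adjusted p = 0.889). The deposited values of HL-60 and HCT116 lay about 0.4 below those of T24 for the median gene (-0.45 and -0.41 on control arrays), so a difference between labels in deposited values is read relative to that shift.

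The proteins that work with and upon HOX genes were measured on the same arrays. Of the TALE cofactors, which bind DNA together with HOX proteins, 6 of 8 measured genes were above background on the control arrays of each label, PBX2 and PBX3 among them. Of the Polycomb genes, 14 of 14 were above background on HL-60, 12 of 14 on HCT116 and 11 of 14 on T24 control arrays, and of the Trithorax and MLL genes 10, 9 and 9 of 13. On arrays labelled T24 the combination called PSIP1, which tethers MLL to chromatin (-0.75, SE 0.04, adjusted p = 0.000623), and PCGF2, a Polycomb subunit (-0.41, adjusted p = 0.0320), and no other gene of these lists. PSIP1 gave 9.13 and 9.13 with the combination and 9.84 and 9.92 in control, with no overlap, and was also lower with the combination than with 5-Aza-CdR (-0.44, adjusted p = 0.00800), as was PCGF2 (-0.43, adjusted p = 0.0441).

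On HL-60 arrays 5-Aza-CdR called 4 of 14 Polycomb genes (1 higher, 3 lower), 1 of 8 TALE cofactors and 1 of 13 Trithorax and MLL genes (both lower), against 9.97% of all genes. CBX2, which reads the Polycomb histone mark, fell by 0.96 (adjusted p = 0.000290), the TALE cofactor PBX2 by 0.71 (adjusted p = 0.00168), PCGF2 by 0.53 (adjusted p = 0.00806) and CBX7 by 0.41 (adjusted p = 0.0178). With the combination 2 of 14 Polycomb genes were lower, 2 of 13 Trithorax and MLL genes higher and 1 lower, 1 of 8 TALE cofactors lower, and of 18 measured cluster neighbours and noncoding transcripts 1 was higher and 2 lower, against 16.3% of all genes called. DPY30, a subunit shared by the MLL complexes, rose by 0.92 (adjusted p = 0.000734), while CBX2 fell by 0.87 (adjusted p = 0.000360) and PSIP1 by 0.78 (adjusted p = 0.000403). CBX5, a heterochromatin protein encoded beside the HOXC cluster, rose by 0.55 (adjusted p = 0.0191). DPY30 (0.66, adjusted p = 0.0278) and PBX2 (0.47, adjusted p = 0.0421) were higher with the combination than with 5-Aza-CdR. Of the coding genes of the HOXA cluster, HOXA2 alone had a probe. The noncoding transcript HOXA11-AS of this cluster gave 8.18 and 8.16 with the combination against 8.67 and 8.57 in HL-60 control (-0.46, SE 0.12, adjusted p = 0.0232 by limma). HOXA11-AS gives no measure of the HOXA coding genes without a probe. HOTAIR and the microRNA precursors MIR10A, MIR10B, MIR196A1, MIR196A2 and MIR196B were below the background limit on all control arrays, where an array for mRNA gives no measure of the mature microRNA.

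On arrays labelled HCT116 the contrasts with control called 8, 8 and 7 of 14 Polycomb genes with the combination, clorgyline and 5-Aza-CdR, 4 of them higher each time and 4, 4 and 3 lower, against 15.7%, 15.3% and 16.2% of all genes. In each of these comparisons 1 of 13 Trithorax and MLL genes and 3 of 18 neighbours were called, all higher, with 0, 1 and 0 of 8 TALE cofactors and 1, 2 and 1 of 3 CDX genes. With the combination BMI1 (1.23), RING1 (1.003), SMUG1 (0.85), a neighbour of the HOXC cluster, and JARID2 (0.84) had the largest changes of these lists, with clorgyline BMI1 (1.30), RING1 (1.13), PHC2 (-0.95) and PCGF2 (-0.86), and with 5-Aza-CdR BMI1 (1.45), RING1 (0.98), SMUG1 (0.89) and PCGF2 (-0.85). CDX2, an intestinal homeobox factor that switches on trunk HOX genes in the mouse embryo, gave 8.33 and 8.46 with the combination, 8.16 and 8.08 with clorgyline and 8.18 and 8.27 with 5-Aza-CdR, against 7.60 and 7.63 in control. It was higher on every treated array (0.78, 0.50 and 0.61, adjusted p = 0.000976, 0.00441 and 0.00214) and above background on T24 control arrays as well, at 8.69 and 8.51. These genes move with the same split of arrays as the HOX genes of this label, and their part in the HOX values was not tested.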

How the data were processed

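The bead intensities were processed by the authors in lumi (version 2.6.0 for T24 and HCT116 and 2.8.0 for HL-60, per the labels), and the deposited values are log2 values after Robust Spline Normalization. Background correction is not given in the sources used here. Sorted values of arrays of a label differed by at most 0.00521, and the distributions differed between labels, so a change in total RNA could not be seen. The members and lists were chosen with earlier results of these data known.

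Of 47231 probes, 30113 had 1 gene symbol, 8 several and 17110 none in the annotation used here, and 30074 were matched to RefSeq by gene ID. A gene was read from its brightest probe over the 8 arrays of a label, and 2 HL-60 probes with missing values were left out. Signal over background stands in for depth, with precision limited by 2 arrays per condition. No detection p was at hand, so the 99th percentile over 371 olfactory receptor genes was the background limit. Each label was fitted with limma 3.58.1 in R 4.3.3 (lmFit, eBayes) over all probes and 4 conditions, with Benjamini-Hochberg adjustment over all probes. The methods' limits, an unadjusted p under 0.01 and a fold over 2, were an alternative, as were other fits, scalings, filters and leaving out each array. Differences between labels were fitted over 24 arrays quantile normalized together, and differences between their responses over 24 arrays as deposited. The fits were tested on simulated data. Full statistics are given for called HOX genes, at most 8 per comparison by size, or else for the 2 with the smallest p, and at most 4 called genes per comparison for the other lists. HOXD3, HOXD4, HOXB5, HOXC5, HOXC8 and HOXD13 in HCT116, HOXC6 and HOXD13 with the combination in HL-60, HOXA11-AS and CDX2 were added after their values were seen. Methylation, growth and ChIP data were not analysed here.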

Additional observations from a re-analysis of the deposited data

Results flagged for a closer look

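The log2 change against control differed between arrays labelled HCT116 and T24 for 7 HOX genes with clorgyline, 8 with 5-Aza-CdR and 10 with the combination, by a limma interaction test over 24 arrays with adjustment over all probes, and all of these differences were negative. Of all genes, 10.4%, 13.8% and 14.7% differed in the same order. The 3 treatments share the same control arrays of each label, and the treated arrays labelled HCT116 resembled arrays labelled T24, so the treatments and the difference between these control arrays cannot be told apart. As HCT116 minus T24, the difference in change of HOXB8 was -2.92 with clorgyline, -2.90 with 5-Aza-CdR and -3.02 with the combination. HOXB6, read from its brighter probe, differed by -0.92, -1.13 and -1.02 in the same order. HOXB2 differed by -0.57, -0.77 and -0.94, and HOXD1 by -0.66, -0.64 and -0.73. HOXC4, read from its brighter probe, differed by -0.35, -0.68 and -0.60, HOXC8 by -0.52, -0.50 and -0.61, and HOXD11 by -0.47, -0.41 and -0.55. HOXD3 differed by -0.23 with 5-Aza-CdR and -0.27 with the combination. HOXB4 (-0.37, adjusted p = 0.0214) and HOXC6 (-0.94, adjusted p = 0.0108) differed with the combination, and gave -0.33 and -0.76 with clorgyline (adjusted p = 0.0505 and 0.0522) and -0.29 and -0.61 with 5-Aza-CdR (adjusted p = 0.0833 and 0.131). The treatments were not tested against each other.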

How the results depend on the processing

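The values below are counts of HOX genes. With 2 arrays per condition, changes of HOX genes near the background limit are compressed and their calls move with the fit. On arrays labelled T24 the 2 calls with the combination became 0 under the methods' limits, with an added fold limit of 2, with bright probes only, in the fit over 24 arrays and with only the groups compared, and 4 with a trend and robust prior, and ranged from 0 to 2 when an array was left out. The combination against 5-Aza-CdR gave 1 with bright probes only, 2 with a trend and robust prior and 1 with the replicate number as a block. With that block the combination against control in T24 also gave 2, but shared 0 with the 2 without it: HOXB2 and HOXC9 were lost and HOXC6 and HOXC13 called. Same-numbered arrays correlated between -0.12 and 0.212 in their deviations, above 0.1 in 0 of 6 pairs for T24, 2 of 6 for HL-60 and 1 of 6 for HCT116. The labels give no pairing, and these correlations cannot show whether same-numbered arrays share a batch or culture. The fit over 24 arrays gave 3 with clorgyline, 2 with 5-Aza-CdR, 3 with the combination and 3 for the combination against 5-Aza-CdR in HL-60. Over all probes that fit called 2899, 7095, 9217 and 4138 in the same order. On arrays labelled HCT116 the methods' limits and the added fold limit gave 1 with clorgyline, 2 with 5-Aza-CdR and 2 with the combination, and only the groups compared gave 4, 5 and 4. Leaving out an array gave 6 to 12 with the combination, 5 to 12 with clorgyline (5 without either clorgyline array) and 5 to 13 with 5-Aza-CdR (5 without either 5-Aza-CdR array). Genes above background in control numbered 13 for T24 at the 95th percentile, and 3 for T24, 2 for HL-60 and 8 for HCT116 at 0.5 over the median of all probes. Between labels, HL-60 against T24 control gave 1 with the fold limit, 27 as deposited and 14 after a common median, and HCT116 against T24 control 5 with the fold limit and 24 as deposited. At matched treatment labels the deposited values gave 28 with clorgyline, 27 with 5-Aza-CdR and 28 with the combination. The share of all genes called between labels in deposited values was not computed. Clorgyline gave 0 with the fold limit, 0 after a common median and 2 with a trend and robust prior, the combination 1 with that prior, and 5-Aza-CdR 0 to 1 when an array was left out. In deposited values, whose median gene is shifted by about -0.41 to -0.45, log2 differences turned their sign: 0.21 for HOXC6 (0.77 after a common median) and -0.077 for HOXC10 in HL-60 minus T24, -0.084 for HOXB4, -0.18 for HOXD3, -0.13 for HOXD4, -0.31 for HOXD9 and -0.32 for HOXD12 in HCT116 minus T24 control, and -0.18 for HOXC4 with clorgyline. Among the other alternatives for single genes, 436 kept direction and side of the threshold, 76 lost the call and 2 gained it. Causes of these shifts were not tested.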
